A study of Mus musculus with 12 samples.

Results

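E2F transcription factors and the retinoblastoma proteins that hold them in check were followed across resting and activated helper T cells of the mouse. The set was chosen by name and holds 10 genes, the 7 E2F factors E2f1, E2f2, E2f3, E2f4, E2f6, E2f7 and E2f8 and the 3 pocket protein genes Rb1, Rbl1 (p107) and Rbl2 (p130), of 17203 genes listed. All 10 were among the 9826 genes tested. RNA came from primary CD4+ T cells of C57BL/6 mice, with no genetic change named for any group, in 12 libraries that formed 4 groups of 3. Unstimulated cells were freshly isolated and not activated. CD3 cells were activated for 72 h by anti-CD3 alone, plate-bound, through the T cell receptor complex. CD3_CD28 cells had plate-bound anti-CD3 and soluble anti-CD28, an antibody to the costimulatory receptor CD28, for 72 h. For 72 h, CD3_CD28_ICOS cells received these antibodies and anti-ICOS, which engages a further receptor of the CD28 family, with every antibody soluble by the label. In that group anti-CD3 was therefore presented in another format, and the effects of format and of anti-ICOS cannot be told apart. The labels state no age or sex of the mice and no purity of the cells, and leave unsaid if replicates are separate animals or cultures. What the p-values weigh is thus library-to-library spread, and that spread may be only technical. Transduction is mentioned in the series' design text and in none of the sample labels.

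In resting cells, pocket proteins bound to E2F factors keep the genes of DNA replication silent. Growth signals raise D-type cyclins, whose kinases CDK4 and CDK6 phosphorylate the pocket proteins, and freed activator E2Fs (E2F1, E2F2 and E2F3) switch on genes of S phase, cyclin E among them. E2F4 is the main E2F bound by p130 in quiescent cells and enters the repressive DREAM complex with p130 or p107, a DP partner and the MuvB core. E2F6 represses without a pocket protein, through Polycomb-type complexes. E2F7 and E2F8, the atypical members, bind DNA without a DP partner and repress E2F targets late in S phase. In T cells, the passage from quiescence to division after receptor engagement is a classical setting of this pathway, and loss of E2F1 or E2F2 in mice is known to alter T cell proliferation and tolerance.

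The E2F family is known for regulating its own promoters, so the windows from 250 bases before to 50 bases after the start were searched on both strands. RefSeq windows (GRCm38.p6) were found for 8 of the 10 genes, 10 windows in all. The E2F site was searched as TTTCCCGC, TTTCGCGC, TTTGCCGC and TTTGGCGC, and a site lay in E2f2, E2f3, E2f7 and Rbl1, that is in 4 of 8 genes. Of all 27025 genes with a window 2.605% held one, and of the 7402 tested genes with a window 5.17% did. Counted by window, 2.26% of all 32851 held one. The stretches around these sites are shown because they place these letters within the promoters of the E2F and pocket protein genes themselves. Capitals mark the E2F site, each sequence runs 5′ to 3′ along the gene's strand, and in E2f3 and E2f7 the site reads on the other strand.
E2f2, chr4:136172298-136172323, plus strand: tttggcggcatatagTTTGGCGCtaa
E2f3, chr13:29986052-29986089, minus strand: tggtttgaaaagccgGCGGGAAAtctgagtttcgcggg
E2f7, chr10:110745226-110745263, plus strand: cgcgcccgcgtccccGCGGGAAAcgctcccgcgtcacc
Rbl1, chr2:157204530-157204567, minus strand: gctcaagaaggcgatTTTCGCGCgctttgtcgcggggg
The site began 40 bases after the start in E2f2, 11 bases before it in E2f3, 198 before it in E2f7 and 18 before it in Rbl1. The RefSeq start of this E2f2 window lies 120 bases before the GENCODE gene start, so the site lies outside the GENCODE gene. The whole windows of Rbl1 and Rbl2 follow, because these close relatives moved in opposite directions after anti-CD3. The Rbl2 window held none of the 4 letter strings, so it has no capitals. The windows of E2f1, E2f6 and E2f8 held none either, and these genes rose in CD3. Any part of the site in these movements was not tested.
Rbl1 window, chr2:157204485-157204784, minus strand: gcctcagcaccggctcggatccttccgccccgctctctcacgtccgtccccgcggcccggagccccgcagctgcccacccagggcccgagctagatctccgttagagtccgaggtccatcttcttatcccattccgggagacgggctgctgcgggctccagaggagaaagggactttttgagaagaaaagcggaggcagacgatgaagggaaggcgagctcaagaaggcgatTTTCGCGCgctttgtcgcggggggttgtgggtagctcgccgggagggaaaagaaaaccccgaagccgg
Rbl2 window, chr8:91069807-91070106, plus strand: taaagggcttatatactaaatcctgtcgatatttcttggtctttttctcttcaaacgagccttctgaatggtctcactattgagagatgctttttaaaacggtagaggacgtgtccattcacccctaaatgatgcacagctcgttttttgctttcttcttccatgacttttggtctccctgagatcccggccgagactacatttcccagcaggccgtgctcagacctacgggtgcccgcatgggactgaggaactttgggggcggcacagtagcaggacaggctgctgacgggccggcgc
The element of MuvB complexes (CHR), searched as TTTGAA and as TTCGAA, lay in windows of E2f2, E2f3, E2f8 and Rbl2, 4 of 8 genes, against 21.7% of all genes with a window and 16.7% of the tested ones. In E2f2 it lay only in a window whose RefSeq start is 8388 bases inside the GENCODE gene, so this may not be the main promoter. The NF-Y box, searched as CCAAT, lay in windows of E2f2, E2f3, E2f7 and E2f8, 4 of 8 genes, against 41.1% of all genes with a window and 43.5% of the tested ones. The window of E2f1 starts from a RefSeq start 466 bases inside the GENCODE gene, so it may not hold the main promoter. A match is a description of letters and shows no binding.

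Levels are CPM, reads per 1e6 reads assigned to the listed genes. Depth, read from the steps between low values, was 11.4 to 37.5 per library in units of 1e6 assigned reads, so that 1 read was worth 0.0267 to 0.0878 CPM. The 8 markers of CD4 T cells, among them Cd3e and Cd4, were present in every group, with a summed level of 5526 to 5997 CPM in unstimulated libraries, 3263 to 3784 with anti-CD3 alone, 3068 to 3555 in the CD3_CD28 group and 4660 to 5110 CPM in the ICOS group. The 5 B cell markers summed to 93.8 to 169 CPM in unstimulated, 214 to 456 in CD3 and only 6.40 to 8.53 CPM in CD3_CD28 libraries, and to 157 to 451 CPM in the ICOS group, with no marker at 0 in all libraries of a group. Markers of other cells stood high in the unstimulated libraries. The 7 myeloid markers summed there to 145 to 391 CPM against at most 12.8 CPM in a stimulated library, and the 5 pancreatic acinar markers to 217 to 1199 CPM against at most 1.58 CPM. Of the acinar markers, 3 were at 0 in all CD3 libraries and 4 in each of the other stimulated groups, and Lyz2 was at 0 in the CD3_CD28 libraries. The part of these other cells in the differences from unstimulated cells was not tested. The 6 erythroid and platelet markers summed to 78.1 to 146.5 CPM in the unstimulated libraries and to at most 3.41 CPM in a stimulated one, with 3 of them at 0 in all CD3_CD28 libraries. The 4 dendritic markers listed reached at most 12.8 CPM, and the 5 of CD8 and NK cells summed to 42.1 to 61.2 CPM in unstimulated, 27.9 to 39.2 in CD3 and 23.0 to 29.7 CPM in CD3_CD28 libraries, and to 48.1 to 89.6 CPM in the ICOS group. For Cd8a the mean was 1.58 ± 0.121 CPM with CD3_CD28 and 28.6 ± 15.7 CPM with CD3_CD28_ICOS. Cd8b1, the other tested marker of CD8 and NK cells, did not follow Cd8a. Its mean was 24.7 ± 3.74 CPM with CD3_CD28, 24.8 ± 4.96 CPM with CD3_CD28_ICOS and 15.96 ± 1.46 CPM in CD3. In CD3_CD28 replicate 1, 1 ribosomal RNA gene took 11.8% of the reads against 1.60 and 2.73% in the other libraries of that group. In bulk RNA, fewer cells of a type and less RNA per cell cannot be told apart, and since unstimulated cells were not cultured, culture and stimulation cannot be told apart either.

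After 72 h of anti-CD3 alone, the activators E2f1, E2f2 and E2f3, the repressors E2f4 and E2f6, the atypical E2f7 and E2f8 and the pocket protein genes Rb1 and Rbl1 rose, and Rbl2 fell. CD3 cells held the highest group mean of 8 of the 10 genes. The share of all genes that were highest in CD3 is not given here. At this scaling the median log2 fold change of all genes also leaned toward CD3. It was 0.18 in CD3 against unstimulated, -0.24 in CD3_CD28 against CD3 and -0.07 in CD3_CD28_ICOS against CD3. Rb1 was highest with added anti-CD28, and Rbl2 was highest in unstimulated cells. In CD3_CD28 against CD3, Rb1 was higher and the other 9 genes were lower, of which 4 (E2f1, E2f3, E2f4 and Rbl2) lost their calls under another scaling and Rbl2 changed sign to 0.01. CD3_CD28_ICOS cells had E2f2, E2f7, Rbl1 and Rbl2 above CD3_CD28 cells and E2f1, E2f4 and Rb1 below them.

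**Figure D1:**
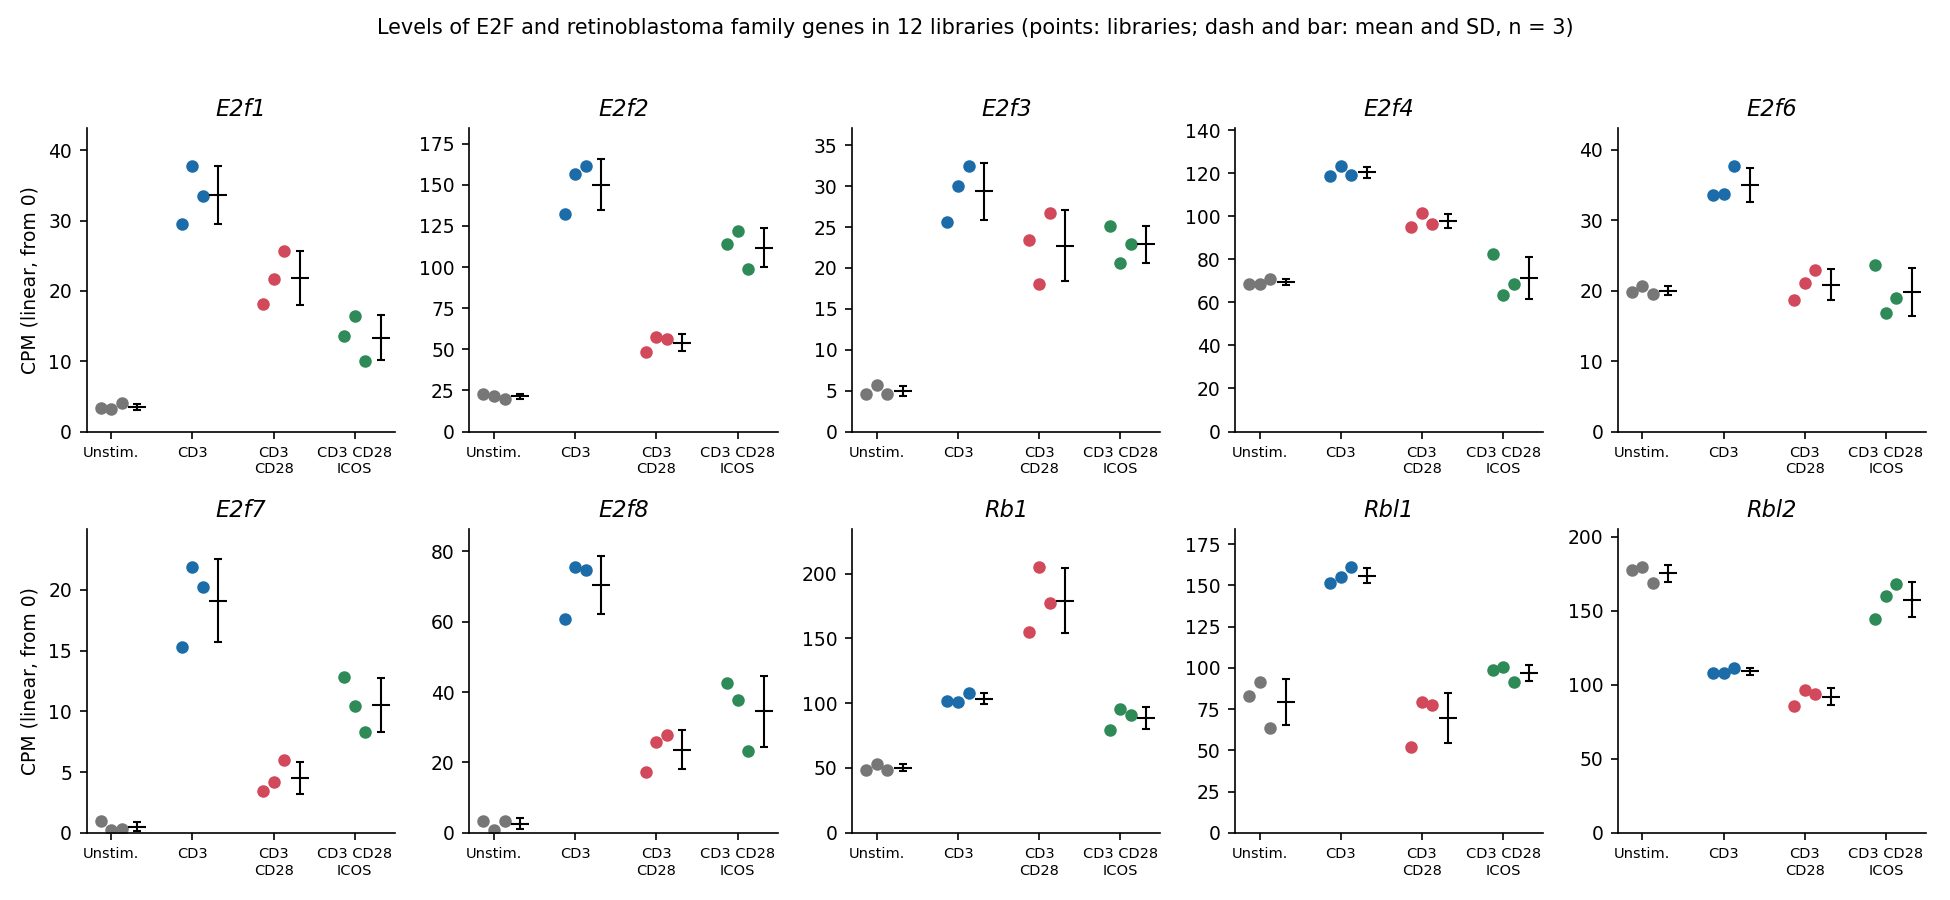
Level of each gene in CPM (linear axis from 0) in the 4 groups. Points are the 3 libraries of a group, and the dash with its bar is their mean and SD. The CD3 mean is highest for 8 genes, the CD3_CD28 mean for Rb1 and the unstimulated mean for Rbl2. The share of all genes highest in CD3 is not given.

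Counts of calls were read against all genes tested, because most genes changed. A call is a Benjamini-Hochberg adjusted p under 0.05 in limma, fitted on log2(CPM + 1) over all 9826 genes, and the fold changes below are on that scale, which understates the change of low genes. Fold changes are given ± SE and group means in CPM ± SD (n = 3 libraries). In CD3 against unstimulated, 10 of 10 genes were called, 9 higher and 1 lower, where 69.8% of all genes were called, 43.6% higher and 26.3% lower. In CD3_CD28 against unstimulated 8 were called, 7 higher and 1 lower, against 75.2% of all genes, 36.1% higher and 39.1% lower. For CD3_CD28_ICOS against unstimulated there were 6 calls, all higher, against 59.4%, of which 35.6% higher. Those 3 comparisons share the unstimulated libraries. A filter of 10 CPM in at least 3 libraries was reached by E2f1, E2f3, E2f7 and E2f8 through stimulated libraries alone, so these 4 had to be higher there and their calls against unstimulated cells carry little weight as a count. Their fold changes and p-values against unstimulated cells, given below, are descriptions. All 3 libraries of a stimulated group lay beyond all 3 unstimulated ones, with no overlap, for 10 members in CD3, 8 in CD3_CD28 and 8 in CD3_CD28_ICOS, as they did for 76.9%, 76.7% and 64.5% of all genes. E2f1, E2f3, E2f7 and E2f8 are among these members in each group, so these counts too carry little weight.

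Between stimulated groups, 9 of the 10 genes differed by an F test in limma among the 9 stimulated libraries, where 80.7% of all genes did. E2f3 was the exception (adjusted p = 0.0661). In CD3_CD28 against CD3, 10 of 10 genes were called, 1 higher and 9 lower, against 64.4% of all genes, 18.7% higher and 45.7% lower. That count rests on the scaling: 6 genes were called after quantile normalization and 6 after scaling by the median of ratios. These 2 scalings moved the median log2 fold change of all genes from -0.24 to -0.03 and 0.00, and the split of all called genes from 1837 higher and 4487 lower to 2882 and 3109, and to 3153 and 2807. For CD3_CD28_ICOS against CD3_CD28, 7 genes were called, 4 higher and 3 lower, against 63.0% of all genes, 38.5% higher and 24.5% lower. The split over all genes there moved from 3787 higher and 2403 lower to 3224 and 3115, and to 2782 and 3605. In CD3_CD28_ICOS against CD3, 8 genes were called, 1 higher and 7 lower, against 47.7%, of which 18.9% higher and 28.7% lower. Groups did not overlap for 9 members in CD3_CD28 against CD3, 7 in CD3_CD28_ICOS against CD3_CD28 and 10 in CD3_CD28_ICOS against CD3, beside 72.4%, 64.8% and 58.5% of all genes. E2f7 reached the 10 CPM filter in 0 CD3_CD28 libraries and passed it through other groups. Its place in the counts that involve CD3_CD28 therefore carries little weight. Against unstimulated cells the other scalings took the median of all genes in CD3 from 0.18 to -0.07 and 0.03, and the split from 4280 higher and 2582 lower to 3119 and 3766, and to 3619 and 3375. The members called in the 3 comparisons with unstimulated cells numbered 10, 8 and 6 or 7 under every one of the 23 alternatives run. E2f1, E2f3, E2f7 and E2f8, which had to be higher in stimulated libraries, are among them each time, so the steady count carries little weight.

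**Figure D2:**
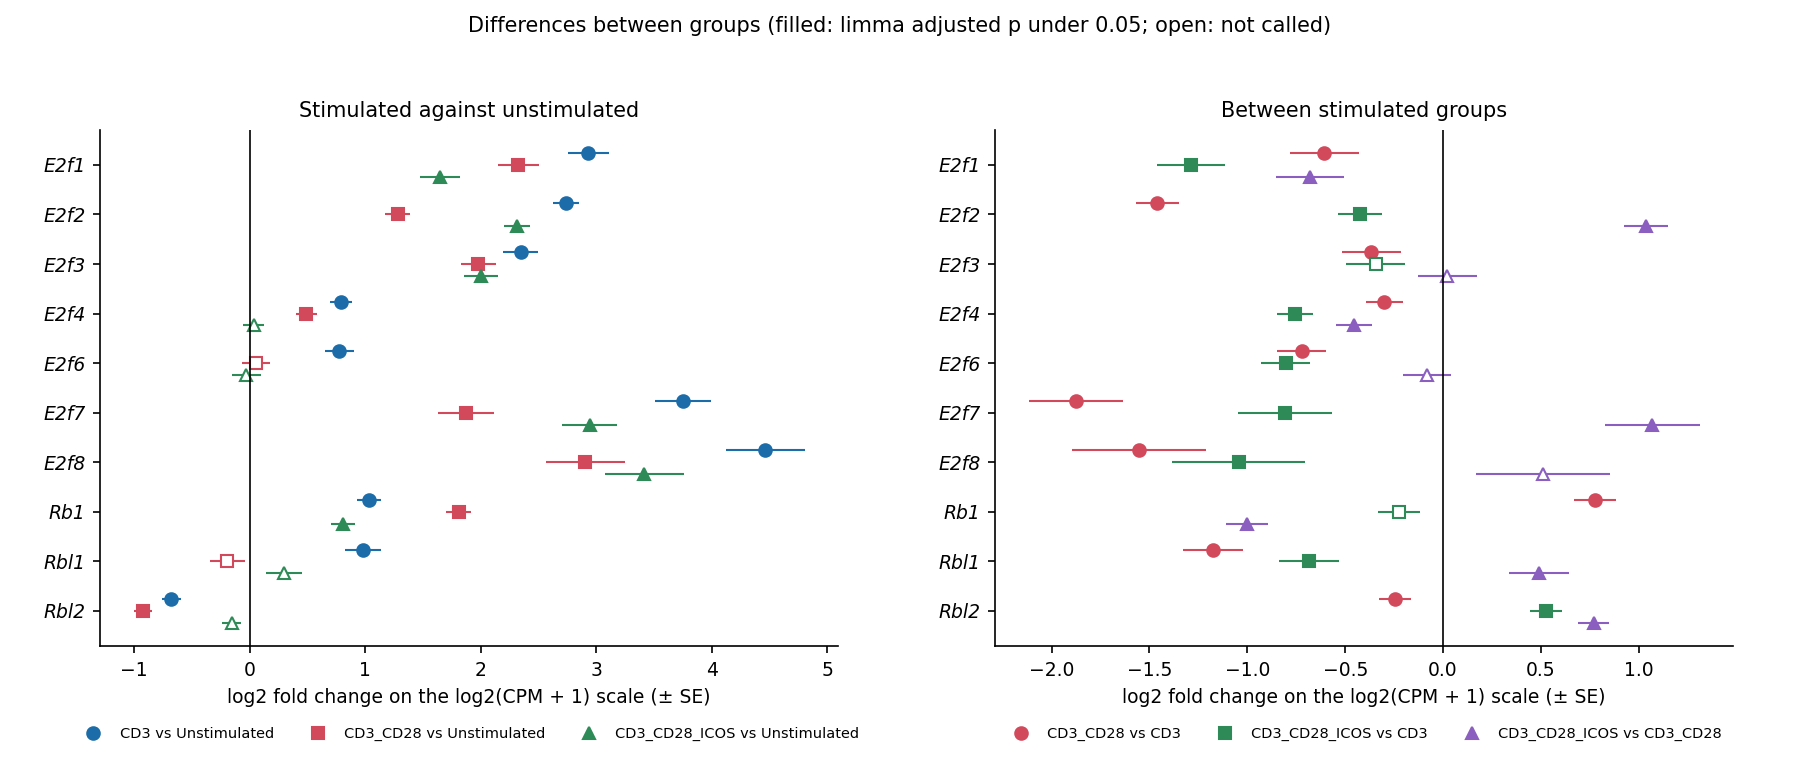
Log2 fold change of each gene with its SE, from values on the log2(CPM + 1) scale, stimulated against unstimulated on the left and between stimulated groups on the right. Filled marks have a limma adjusted p under 0.05 and open marks do not. Rb1 is the one gene to the right of 0 in CD3_CD28 against CD3 at this scaling, and Rbl2 turns to 0.01 there after scaling by the median of ratios.

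Positions are given on GRCm38 with GENCODE vM21, where all 10 genes are protein-coding. The activator E2f1 (chromosome 2, 154559407 to 154569892, minus strand), which drives replication genes and is also tied to cell death, was at 3.33, 3.24 and 4.0 CPM in unstimulated replicates 1 to 3. It stood at 29.6, 37.8 and 33.5 CPM in CD3, 18.1, 21.7 and 25.7 CPM in CD3_CD28 and 13.6, 16.4 and 10.0 CPM in CD3_CD28_ICOS. No 2 groups overlapped, and the order was CD3, CD3_CD28, CD3_CD28_ICOS and unstimulated. The mean was 9.54 times the unstimulated mean in CD3, and the log2 fold change was 2.93 ± 0.17 (limma adjusted p = 4.66e-09). It was 2.33 ± 0.17 in CD3_CD28 (adjusted p = 3.30e-08) and 1.65 ± 0.17 in CD3_CD28_ICOS (adjusted p = 2.49e-06), the last falling to 0.94 after quantile normalization and to 1.09 with a pseudocount of 5. No unstimulated library of E2f1 reached the 10 CPM filter, so its rises over unstimulated cells are descriptions. Against CD3, E2f1 was lower in CD3_CD28 (log2 fold change -0.61 ± 0.17, adjusted p = 0.00802), a call that both other scalings ended, at -0.39 (adjusted p = 0.0735) and -0.36 (adjusted p = 0.0811). It was lower again in CD3_CD28_ICOS against CD3_CD28 (log2 fold change -0.68 ± 0.17, adjusted p = 0.00382) and against CD3 (log2 fold change -1.29 ± 0.17, adjusted p = 7.41e-05).

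E2f2 (chromosome 4, 136172394 to 136196057, plus strand), the activator best known from lymphocytes, was at 23.0, 21.7 and 20.0 CPM in unstimulated cells. It reached 132, 157 and 162 CPM in CD3, 48.1, 57.6 and 56.0 CPM in CD3_CD28 and 114, 122 and 98.7 CPM in CD3_CD28_ICOS. The 4 groups were again apart, but in another order, with CD3_CD28 the lowest of the stimulated groups. E2f2 thus rose 6.96-fold in CD3 (log2 fold change 2.74 ± 0.11, limma adjusted p = 2.01e-10), 2.50-fold in CD3_CD28 (1.28 ± 0.11, adjusted p = 1.38e-07) and 5.18-fold in CD3_CD28_ICOS (2.32 ± 0.11, adjusted p = 1.42e-09). It was lower in CD3_CD28 than in CD3 (log2 fold change -1.46 ± 0.11, adjusted p = 3.91e-07), and higher in CD3_CD28_ICOS than in CD3_CD28 by 1.04 ± 0.11 (adjusted p = 2.79e-06). Against CD3, the ICOS group was lower (log2 fold change -0.42 ± 0.11, adjusted p = 0.00655). E2f1 and E2f2 moved opposite ways from CD3_CD28 to CD3_CD28_ICOS, each with a call of its own. The summed markers of B cells were likewise lowest in CD3_CD28 among the stimulated groups. Those of CD8 and NK cells reached their lowest value there, but overlapped with CD3, and Cd8b1 was lowest in CD3. The part of B, CD8 and NK cells in this result, and in those of E2f7, Rbl1 and Rbl2, was not tested.

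For E2f3 (chromosome 13, 29906575 to 29986063, minus strand), the activator needed for S phase entry in many cell types, the unstimulated libraries held 4.62, 5.68 and 4.61 CPM. Stimulated values were 25.6, 30.1 and 32.5 CPM in CD3, 23.4, 18.1 and 26.7 CPM in CD3_CD28 and 25.2, 20.6 and 22.9 CPM in CD3_CD28_ICOS. Every stimulated library was above every unstimulated one, while CD3_CD28 overlapped with both other stimulated groups. The rises were 2.35 ± 0.15, 1.98 ± 0.15 and 2.00 ± 0.15 on the log2 scale (limma adjusted p = 8.84e-09, 3.54e-08 and 8.76e-08). E2f3 passed the 10 CPM filter through stimulated libraries alone, so these rises are descriptions. The difference of CD3_CD28 from CD3, -0.37 ± 0.15 (adjusted p = 0.0447), lost its call under 12 of the 23 alternatives, and was -0.22 (adjusted p = 0.213) without CD3_CD28 replicate 2. CD3_CD28_ICOS differed by 0.02 ± 0.15 from CD3_CD28 (adjusted p = 0.907), with a change of sign under both other scalings, and by -0.34 ± 0.15 from CD3 (adjusted p = 0.0733).

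E2f4 (chromosome 8, 105297663 to 105305370, plus strand), the E2F of quiescent repressor complexes, was expressed before stimulation, at 68.6, 68.3 and 70.9 CPM. Its values were 119, 123 and 119 CPM in CD3, 95.1, 101 and 96.6 CPM in CD3_CD28 and 82.3, 63.3 and 68.5 CPM in CD3_CD28_ICOS. The last group overlapped with unstimulated cells, and CD3 and CD3_CD28 lay above both without overlap. E2f4 rose by 0.79 ± 0.09 in CD3 (limma adjusted p = 3.96e-06) and by 0.49 ± 0.09 in CD3_CD28 (adjusted p = 2.68e-04), and differed by 0.03 ± 0.09 in CD3_CD28_ICOS (adjusted p = 0.765). It was lower in the ICOS group than in CD3 (log2 fold change -0.76 ± 0.09, adjusted p = 3.59e-05) and than in CD3_CD28 (log2 fold change -0.46 ± 0.09, adjusted p = 7.28e-04). Its smaller difference of CD3_CD28 from CD3, -0.30 ± 0.09 (adjusted p = 0.0121), was not called after quantile normalization (-0.14, adjusted p = 0.154) or median-of-ratios scaling (-0.05, adjusted p = 0.676).

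E2f6 (chromosome 12, 16810963 to 16839742, plus strand), the repressor that needs no pocket protein, was at 19.8, 20.7 and 19.5 CPM in unstimulated cells and 33.6, 33.7 and 37.7 CPM in CD3. It was at 18.6, 21.1 and 22.9 CPM in CD3_CD28 and 23.6, 16.9 and 18.9 CPM in CD3_CD28_ICOS. CD3 alone stood apart, and the other 3 groups overlapped with each other. The rise in CD3 was 0.78 ± 0.12 (limma adjusted p = 7.81e-05), or 0.51 after quantile normalization. Against CD3, E2f6 was lower in CD3_CD28 (log2 fold change -0.72 ± 0.12, adjusted p = 2.37e-04), or -0.48 after median-of-ratios scaling, and in CD3_CD28_ICOS (log2 fold change -0.80 ± 0.12, adjusted p = 1.97e-04). From unstimulated cells it differed by 0.05 ± 0.12 in CD3_CD28 (adjusted p = 0.707) and -0.03 ± 0.12 in CD3_CD28_ICOS (adjusted p = 0.857), and these 2 groups differed by -0.08 ± 0.12 (adjusted p = 0.583), which became -0.28 with a call (adjusted p = 0.0352) after median-of-ratios scaling.

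The atypical E2f8 (chromosome 7, 48866429 to 48881596, minus strand), a repressor of E2F targets in dividing cells, was at 3.42, 0.729 and 3.39 CPM in unstimulated cells and 60.9, 75.5 and 74.8 CPM in CD3. CD3_CD28 libraries held 17.3, 25.9 and 27.7 CPM and CD3_CD28_ICOS libraries 42.7, 37.7 and 23.2 CPM. All stimulated libraries lay above the unstimulated ones and CD3 lay above the rest, whereas the CD3_CD28 and CD3_CD28_ICOS groups overlapped. The log2 fold change against unstimulated was 4.46 ± 0.34 in CD3 (limma adjusted p = 2.43e-07), 2.91 ± 0.34 in CD3_CD28 (adjusted p = 8.44e-06) and 3.42 ± 0.34 in CD3_CD28_ICOS (adjusted p = 4.43e-06). With a pseudocount of 5 the value in CD3_CD28 was 1.93. Since E2f8 passed the 10 CPM filter through stimulated libraries alone, its rises over unstimulated cells are descriptions. E2f8 was lower in CD3_CD28 than in CD3 (log2 fold change -1.55 ± 0.34, adjusted p = 0.00199). Against CD3 the ICOS group was lower (log2 fold change -1.04 ± 0.34, adjusted p = 0.0252), a call lost without CD3 replicate 2 (adjusted p = 0.0731), without CD3 replicate 3 (0.0696), without CD3_CD28_ICOS replicate 3 (0.107) or with a pseudocount of 0.1 (0.101). Its difference from CD3_CD28 was 0.51 ± 0.34 (adjusted p = 0.212).

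E2f7 (chromosome 10, 110745439 to 110787384, plus strand), the other atypical repressor, was at 0.977, 0.255 and 0.304 CPM in unstimulated cells and 15.3, 21.9 and 20.2 CPM in CD3. It was at 3.43, 4.16 and 5.96 CPM in CD3_CD28 and 12.8, 10.4 and 8.32 CPM in CD3_CD28_ICOS. No 2 groups overlapped, and CD3_CD28 was the lowest stimulated group, as for E2f2. The log2 fold changes against unstimulated, 3.75 ± 0.24 in CD3 (limma adjusted p = 9.38e-09), 1.87 ± 0.24 in CD3_CD28 (adjusted p = 7.47e-06) and 2.94 ± 0.24 in CD3_CD28_ICOS (adjusted p = 1.99e-07), moved with the pseudocount. With a pseudocount of 5 in place of 1 they were 2.12, 0.78 and 1.49, and with 0.1 they were 5.15, 3.07 and 4.29. The difference of CD3_CD28_ICOS from CD3_CD28, given next, was 0.70 with a pseudocount of 5. E2f7 was lower in CD3_CD28 than in CD3 (log2 fold change -1.88 ± 0.24, adjusted p = 2.15e-05) and higher in CD3_CD28_ICOS than in CD3_CD28 by 1.07 ± 0.24 (adjusted p = 0.00155). It reached the 10 CPM filter in 3 CD3, 2 CD3_CD28_ICOS and 0 CD3_CD28 libraries. E2f7 thus entered the test through the groups where it was high, and its rises over unstimulated cells and both differences from CD3_CD28 are descriptions. The ICOS group was lower than CD3 (log2 fold change -0.81 ± 0.24, adjusted p = 0.0137), a call lost without CD3 replicate 2 (adjusted p = 0.0641), without CD3_CD28_ICOS replicate 3 (0.0687) or with a pseudocount of 0.1 (0.0788).

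Among pocket proteins, Rb1 (chromosome 14, 73183673 to 73325822, minus strand), the retinoblastoma tumour suppressor, was at 48.5, 53.4 and 48.5 CPM in unstimulated cells. It was at 101, 101 and 108 CPM in CD3, 155, 205 and 178 CPM in CD3_CD28 and 79.3, 95.8 and 90.9 CPM in CD3_CD28_ICOS. The groups did not overlap, and CD3_CD28 was highest. Rb1 rose by 1.03 ± 0.11 in CD3 (limma adjusted p = 1.09e-06), 1.81 ± 0.11 in CD3_CD28 (adjusted p = 3.31e-09) and 0.81 ± 0.11 in CD3_CD28_ICOS (adjusted p = 1.99e-05). It was higher in CD3_CD28 than in CD3 by 0.78 ± 0.11 (adjusted p = 3.75e-05), that is 1.73-fold, and lower in CD3_CD28_ICOS than in CD3_CD28 (log2 fold change -1.0 ± 0.11, adjusted p = 2.63e-06). CD3_CD28_ICOS and CD3 differed by -0.22 ± 0.11 (adjusted p = 0.0979). Whether counting used strand is not given, and 2 genes on the opposite strand share exon bases with Rb1. Rcbtb2 (488 bases) stood at 45.3, 22.2, 12.8 and 38.9 CPM and Lpar6 (408 bases) at 19.9, 4.55, 1.23 and 9.35 CPM in unstimulated, CD3, CD3_CD28 and CD3_CD28_ICOS cells. Their part in the Rb1 values was not tested.

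Rbl1 (chromosome 2, 157145893 to 157204534, minus strand), which encodes p107, a pocket protein of cycling cells, was at 83.1, 91.1 and 63.8 CPM in unstimulated cells and 152, 155 and 161 CPM in CD3. It was at 52.1, 79.3 and 77.7 CPM in CD3_CD28 and 98.8, 100.2 and 91.3 CPM in CD3_CD28_ICOS. CD3 lay above the other groups, CD3_CD28 overlapped with unstimulated cells, and CD3_CD28 replicate 1 was the lowest library. Rbl1 rose by 0.98 ± 0.15 in CD3 (limma adjusted p = 6.56e-05). The differences of CD3_CD28 and CD3_CD28_ICOS from unstimulated cells were -0.19 ± 0.15 and 0.30 ± 0.15 (adjusted p = 0.262 and 0.11), and the latter was called without CD3_CD28 replicate 1 (adjusted p = 0.035). Rbl1 was lower than in CD3 in CD3_CD28 (log2 fold change -1.18 ± 0.15, adjusted p = 2.75e-05) and in CD3_CD28_ICOS (log2 fold change -0.68 ± 0.15, adjusted p = 0.00263). It was higher in CD3_CD28_ICOS than in CD3_CD28 by 0.49 ± 0.15 (adjusted p = 0.0127), but by 0.30 (adjusted p = 0.0565) without CD3_CD28 replicate 1 and by 0.29 (adjusted p = 0.0522) after median-of-ratios scaling.

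Rbl2 (chromosome 8, 91070057 to 91123844, plus strand), which encodes p130, the pocket protein of quiescent cells and a FOXO target, ran the other way. Its values were 178, 179.5 and 169 CPM in unstimulated cells, 108, 108 and 112 CPM in CD3, 85.8, 96.6 and 93.7 CPM in CD3_CD28 and 145, 160.3 and 168 CPM in CD3_CD28_ICOS. No 2 groups overlapped, with CD3_CD28 lowest and the ICOS group next to unstimulated cells. Rbl2 fell by 0.68 ± 0.08 in CD3 (limma adjusted p = 4.58e-06) and in CD3_CD28 (log2 fold change -0.92 ± 0.08, adjusted p = 1.56e-07). In CD3_CD28_ICOS it differed from unstimulated by -0.16 ± 0.08 (adjusted p = 0.114), and by -0.26 with a call after quantile normalization (adjusted p = 0.00533) and after median-of-ratios scaling (adjusted p = 0.00625). The ICOS group was above CD3_CD28 by 0.77 ± 0.08 (adjusted p = 2.43e-06) and above CD3 by 0.52 ± 0.08 (adjusted p = 1.91e-04). Between the CD3_CD28_ICOS and CD3_CD28 groups, 7 of 8 markers of CD4 T cells (median log2 fold change 0.64) and 5 of 5 of B cells (median 5.34) were also called higher, and their part in the Rbl2 result was not tested. CD3_CD28 was below CD3 (log2 fold change -0.24 ± 0.08, adjusted p = 0.0174), which became -0.07 (adjusted p = 0.365) and 0.01 (adjusted p = 0.921) under the other scalings, and lost its call when CD3 replicate 3 (adjusted p = 0.0598) was left out, or replicate 1 of CD3_CD28 (0.0584). Aktip on the opposite strand shares 693 exon bases with Rbl2 and stood at 11 to 15.2 CPM as group means.

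Ratios within a library are free of its scaling. The ratio of Rb1 to Rbl2 in CPM was 0.273 to 0.298 in unstimulated libraries and 0.935 to 0.969 with anti-CD3 alone. It was 1.80 to 2.12 in the CD3_CD28 group and 0.541 to 0.598 in the ICOS group. No pair of groups overlapped, and each of the 6 pairs had an exact permutation p of 0.1, the smallest that 3 against 3 libraries allow (adjusted over the 6 pairs, 0.1). On the log2 scale the ratio was higher by 1.73 in CD3 than in unstimulated cells, by 2.76 in CD3_CD28, and by 0.98 in CD3_CD28_ICOS. For Rbl1 to Rbl2 the ratios were 0.378 to 0.508 in unstimulated cells, 1.41 to 1.44 with anti-CD3 alone, 0.606 to 0.828 in the CD3_CD28 group and 0.544 to 0.682 in the ICOS group. CD3 exceeded every other group without overlap (exact permutation p = 0.1, adjusted 0.12), and CD3_CD28 and CD3_CD28_ICOS overlapped (exact p = 0.3, adjusted 0.3).

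The activator to repressor ratio, E2f1 to E2f4, was 0.0474 to 0.0564 in unstimulated libraries. It was 0.249 to 0.306 with anti-CD3 alone, 0.190 to 0.266 in the CD3_CD28 group and 0.146 to 0.260 in the ICOS group. Every stimulated library was above every unstimulated one (exact permutation p = 0.1 for each group, adjusted 0.2), and the stimulated groups overlapped with each other. E2f1 passed the 10 CPM filter through stimulated libraries alone, so the difference of this ratio from unstimulated cells is a description. E2f8 to E2f7 was 3.45 to 3.99 with anti-CD3 alone, 4.64 to 6.23 in the CD3_CD28 group and 2.78 to 3.62 in the ICOS group, so that CD3_CD28 exceeded both (exact p = 0.1, adjusted 0.3). In unstimulated libraries, where both genes are low, it ran from 2.86 to 11.1 and overlapped with the rest.

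**Figure D3:**
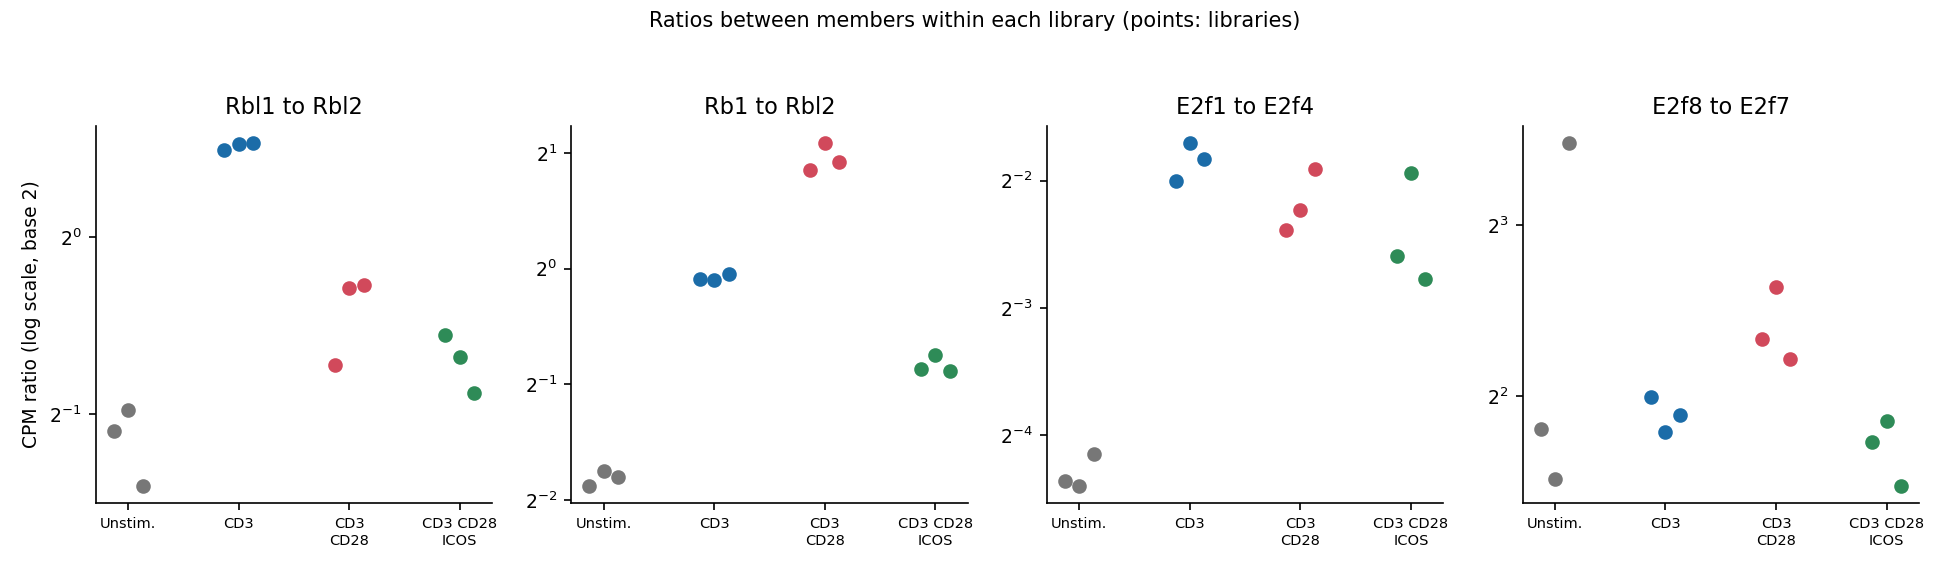
Ratio of 2 genes' CPM within each library on a log axis of base 2, with 1 point per library. For Rb1 to Rbl2 the 4 groups are apart, with unstimulated lowest (0.273 to 0.298) and CD3_CD28 highest (1.80 to 2.12). Since CPM has no length correction, differences between groups can be read and the height of a panel cannot.

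Levels of different genes were compared per kb of exon. In unstimulated cells E2f4 (28.2 ± 0.579 CPM per kb) and Rbl2 (23.2 ± 0.760 CPM per kb) led, followed by Rbl1 at 13.2 ± 2.35 and Rb1 at 8.34 ± 0.473 CPM per kb. E2f2 was the most abundant activator there, at 4.42 ± 0.315 CPM per kb against 1.12 ± 0.131 for E2f1 and 0.915 ± 0.114 for E2f3, whose ranges overlapped with each other. E2f4 was also the highest of the 10 in each stimulated group, at 49.1 ± 1.03, 39.9 ± 1.37 and 29.1 ± 4.02 CPM per kb. In CD3 the next was E2f2 with 30.8 ± 3.20 CPM per kb, in CD3_CD28 it was Rb1 with 29.8 ± 4.18, and in CD3_CD28_ICOS it was again E2f2 with 22.9 ± 2.45 CPM per kb, where the ranges of E2f2 and Rbl2 (20.9 ± 1.57) overlapped. E2f7 was the lowest of the 10 in every group, from 0.0568 ± 0.0448 CPM per kb in unstimulated to 2.12 ± 0.381 in CD3. These levels use the union of annotated exons, so a gene transcribed mostly from a short isoform is understated.

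**Figure D4:**
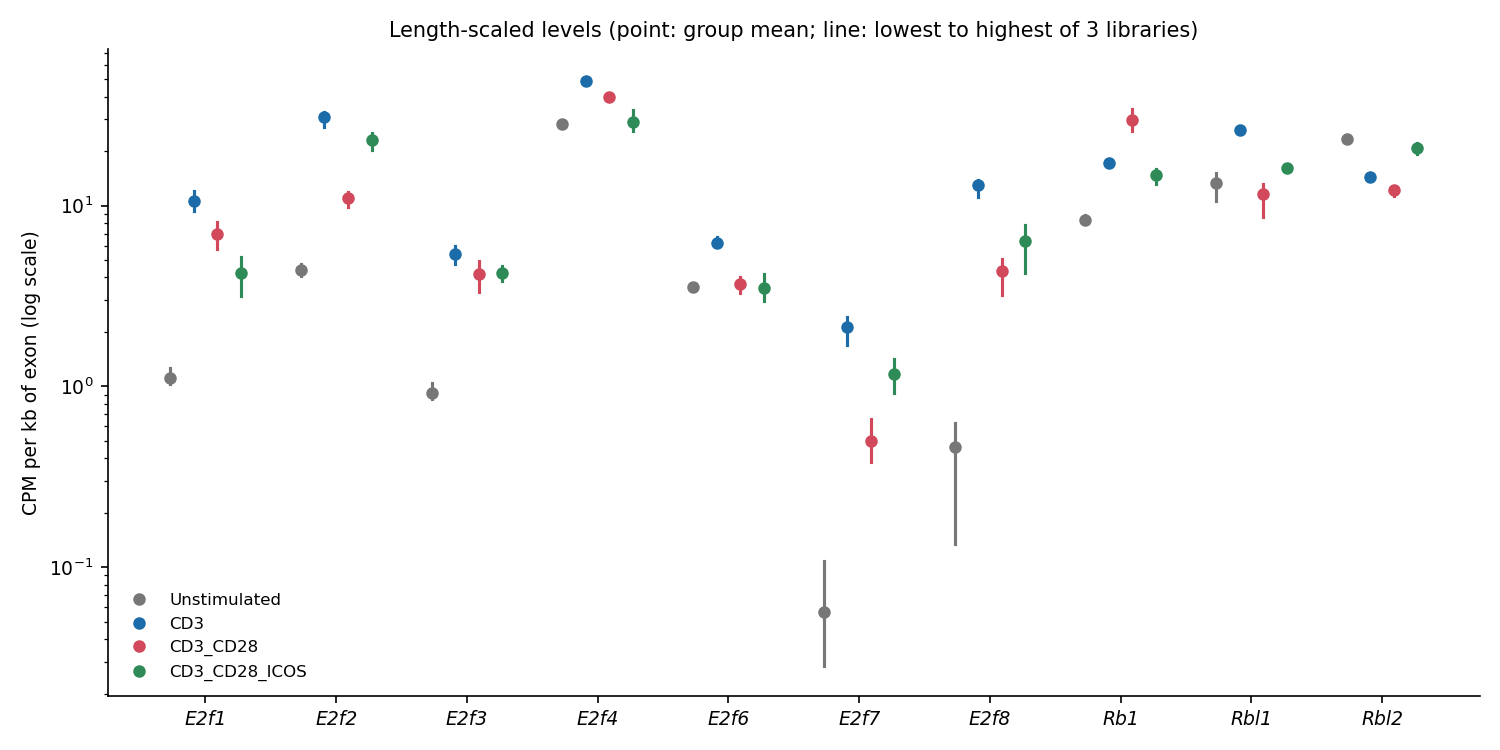
CPM per kb of exon on a log axis for the 10 genes. The point is the mean of a group and the line runs from its lowest to its highest library. E2f4 is highest and E2f7 lowest in each of the 4 groups.

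E2f5, the remaining family member read in the file and a relative of E2f4, never reached 10 CPM and did not pass the filter. It was at 3.82, 4.48 and 5.52 CPM in unstimulated, 3.77, 4.48 and 5.43 CPM in CD3, 6.24, 7.43 and 7.14 CPM in CD3_CD28 and 3.28, 2.06 and 2.93 CPM in CD3_CD28_ICOS. Its highest group was CD3_CD28, as for Rb1, and its lowest was CD3_CD28_ICOS. In a fit with no filter, CD3_CD28_ICOS was lower than CD3_CD28 (log2 fold change -1.09 ± 0.18, limma adjusted p = 0.00015) and CD3_CD28 was higher than CD3 by 0.52 ± 0.18 (adjusted p = 0.0272).

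Beside the counts that follow, genes that reached 10 CPM in no unstimulated library had to be higher in stimulated ones, so that counts and medians against unstimulated cells are descriptions. These were 3 of the 8 tested MuvB and DREAM partners, 3 of 9 G1 cyclins and kinases, 2 of 4 CDK inhibitors, 15 of 37 S phase targets, 20 of 24 G2 and M genes and 3 of 6 ubiquitin ligase genes. Against unstimulated cells, 43.6% of all genes were higher in CD3, 36.1% in CD3_CD28 and 35.6% in CD3_CD28_ICOS, and 26.3% were lower in CD3. In CD3_CD28 against CD3, 18.7% were higher and 45.7% lower. For CD3_CD28_ICOS against CD3_CD28 the shares were 38.5% higher and 24.5% lower. Every list count below is to be read against these shares. DP proteins pair with E2F1 to E2F6 to bind DNA, and the gene of the main one, Tfdp1, rose from 16.1 ± 1.10 CPM in unstimulated to 85.5 ± 11.9 in CD3 (log2 fold change 2.33 ± 0.19, limma adjusted p = 1.74e-07). It was 42.4 ± 8.75 CPM in CD3_CD28 and 39.2 ± 12 CPM in CD3_CD28_ICOS, where the 2 groups overlapped. Tfdp2 stood at 28.0 ± 4.09, 71.4 ± 3.11, 46.1 ± 1.73 and 71.5 ± 7.16 CPM in the same order, so that CD3_CD28 was the lowest stimulated group, as for E2f2. Of the list MuvB and DREAM partners, 8 of 10 genes were tested, and 8 were higher in CD3 than in unstimulated cells, 6 were lower in CD3_CD28 than in CD3, and 2 higher and 1 lower in CD3_CD28_ICOS against CD3_CD28. Its median log2 fold change was 0.91, -0.69 and 0.15 in these comparisons, and the last turned to -0.04 after median-of-ratios scaling. After quantile normalization 5 of the 8 were called higher in CD3 against unstimulated. Mybl2, the activating MYB of cycling cells, went from 1.23 ± 0.652 to 59.8 ± 5.75 CPM in CD3 and stood at 16.1 ± 1.69 in CD3_CD28. Foxm1, the forkhead factor of G2, went from 4.57 ± 1.07 to 113 ± 13.1 CPM, while the MuvB core genes Lin9, Lin37 and Lin54 rose by 0.49 ± 0.12, 0.48 ± 0.15 and 0.33 ± 0.10 on the log2 scale. Which of these genes were among the 5 still called after quantile normalization is not given here. Mybl2, Foxm1 and Lin37 reached 10 CPM in no unstimulated library, so their rises are descriptions. Lin52, another core gene, did not pass the filter. Its means were 9.94 ± 1.27 CPM in unstimulated, 8.04 ± 0.811 in CD3, 5.63 ± 1.18 in CD3_CD28 and 6.94 ± 0.296 CPM in CD3_CD28_ICOS, so unstimulated cells were highest.

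Kinases and cyclins upstream of the pocket proteins did not all move alike. Of the list G1 cyclins and kinases, 9 of 10 were tested, with 7 higher and 1 lower in CD3 against unstimulated (median 1.66), 3 higher and 5 lower in CD3_CD28 against CD3 (median -0.85) and 1 higher and 4 lower in CD3_CD28_ICOS against CD3_CD28 (median -0.12). Cdk6, a partner of D cyclins, was at 29.7 ± 4.18 CPM in unstimulated, 212 ± 22.8 in CD3, 465 ± 85.0 in CD3_CD28 and 62.9 ± 13.5 CPM in CD3_CD28_ICOS. It rose by 1.12 ± 0.17 from CD3 to CD3_CD28 (limma adjusted p = 9.16e-05) and was lower in the ICOS group (log2 fold change -2.87 ± 0.17, adjusted p = 2.90e-08), the same order of groups as Rb1. Cdk4, the other partner, was highest in CD3, at 301 ± 14.2 CPM against 103 ± 2.18 in unstimulated and 168 ± 14.9 in CD3_CD28. Of the D cyclins, Ccnd2 stood at 798 ± 78.7, 901 ± 34.3, 1212 ± 166 and 591 ± 51.9 CPM and Ccnd3 at 215 ± 37.4, 121 ± 20.4, 316 ± 35.9 and 103 ± 10.7 CPM in unstimulated, CD3, CD3_CD28 and CD3_CD28_ICOS cells. Both were called higher in CD3_CD28 than in CD3, by 0.42 ± 0.11 and 1.38 ± 0.15. The E cyclins, which are E2F targets, followed CD3 instead, with Ccne1 at 4.6 ± 1.09, 37.9 ± 2.58, 19.3 ± 2.68 and 20.2 ± 2.26 CPM and Ccne2 at 0.939 ± 0.212, 24.4 ± 3.68, 10.9 ± 0.945 and 10.3 ± 3.54 CPM.

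Of the list CDK inhibitors, 4 of 7 were tested, with 2 higher in CD3 against unstimulated (2 higher and 2 lower under each of the other scalings), 2 higher and 1 lower in CD3_CD28 against CD3 and 2 higher and 1 lower in CD3_CD28_ICOS against CD3_CD28 (2 and 2 after median-of-ratios scaling). Cdkn1a, the p21 gene, stood at 0.486 ± 0.182, 18.1 ± 4.27, 264 ± 13.7 and 8.34 ± 3.23 CPM in the 4 groups, so CD3_CD28_ICOS was lower than CD3_CD28 (log2 fold change -4.88 ± 0.21, limma adjusted p = 3.70e-09). Cdkn2c, an inhibitor of CDK4 and CDK6, stood at 4.16 ± 0.259, 40.3 ± 4.42, 18.2 ± 4.05 and 27.3 ± 4.14 CPM, with CD3_CD28 lowest among stimulated cells. Cdkn1b, the p27 gene of quiescent T cells, was at 138 ± 9.89, 109 ± 13.9, 112 ± 24.1 and 173 ± 30.4 CPM, and was called higher in CD3_CD28_ICOS than in CD3_CD28 (0.62 ± 0.16) and than in CD3 (0.65 ± 0.16), as Rbl2 was.

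Target genes were followed as 2 lists. Of E2F targets of S phase, 37 of 37 rose in CD3 against unstimulated (median 2.86), 33 in CD3_CD28 (median 1.72) and 34 in CD3_CD28_ICOS (median 1.60). CD3_CD28 had 34 of them lower than CD3 (median -1.19), and CD3_CD28_ICOS had 37 lower than CD3 (median -1.24). Of all genes, 45.7% and 28.7% were lower in these comparisons. Some of the 37, Gins3 among them (at most 8.04 CPM in CD3_CD28), passed the 10 CPM filter only through other groups than CD3_CD28. Their calls against CD3_CD28 carry little weight as a count. Between CD3_CD28_ICOS and CD3_CD28, 4 were higher and 5 lower (median -0.10), which became 2 and 8 after quantile normalization and 1 and 13 after median-of-ratios scaling. Mcm10, a factor of replication initiation, rose in CD3 from 1.65 ± 0.836 to 84.6 ± 10.2 CPM. Tyms, which makes thymidylate, was at 37.5 ± 7.34 CPM in CD3, 8.11 ± 1.81 in CD3_CD28 and 19.8 ± 5.75 in CD3_CD28_ICOS, the order of E2f2 and E2f7 means. Orc1, of the origin recognition complex, was at 23.2 ± 1.79, 21.1 ± 2.64 and 8.13 ± 3.53 CPM in these groups, the order of E2f1 means. Of the list G2 and M genes, all but 4 had to be higher in stimulated cells, so no count is given against unstimulated ones. Of the 24, 21 were lower in CD3_CD28 than in CD3 (20 after quantile normalization and 16 after median-of-ratios scaling), and 8 were higher in CD3_CD28_ICOS than in CD3_CD28 (4 higher and 1 lower after median-of-ratios scaling).

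**Figure D5:**
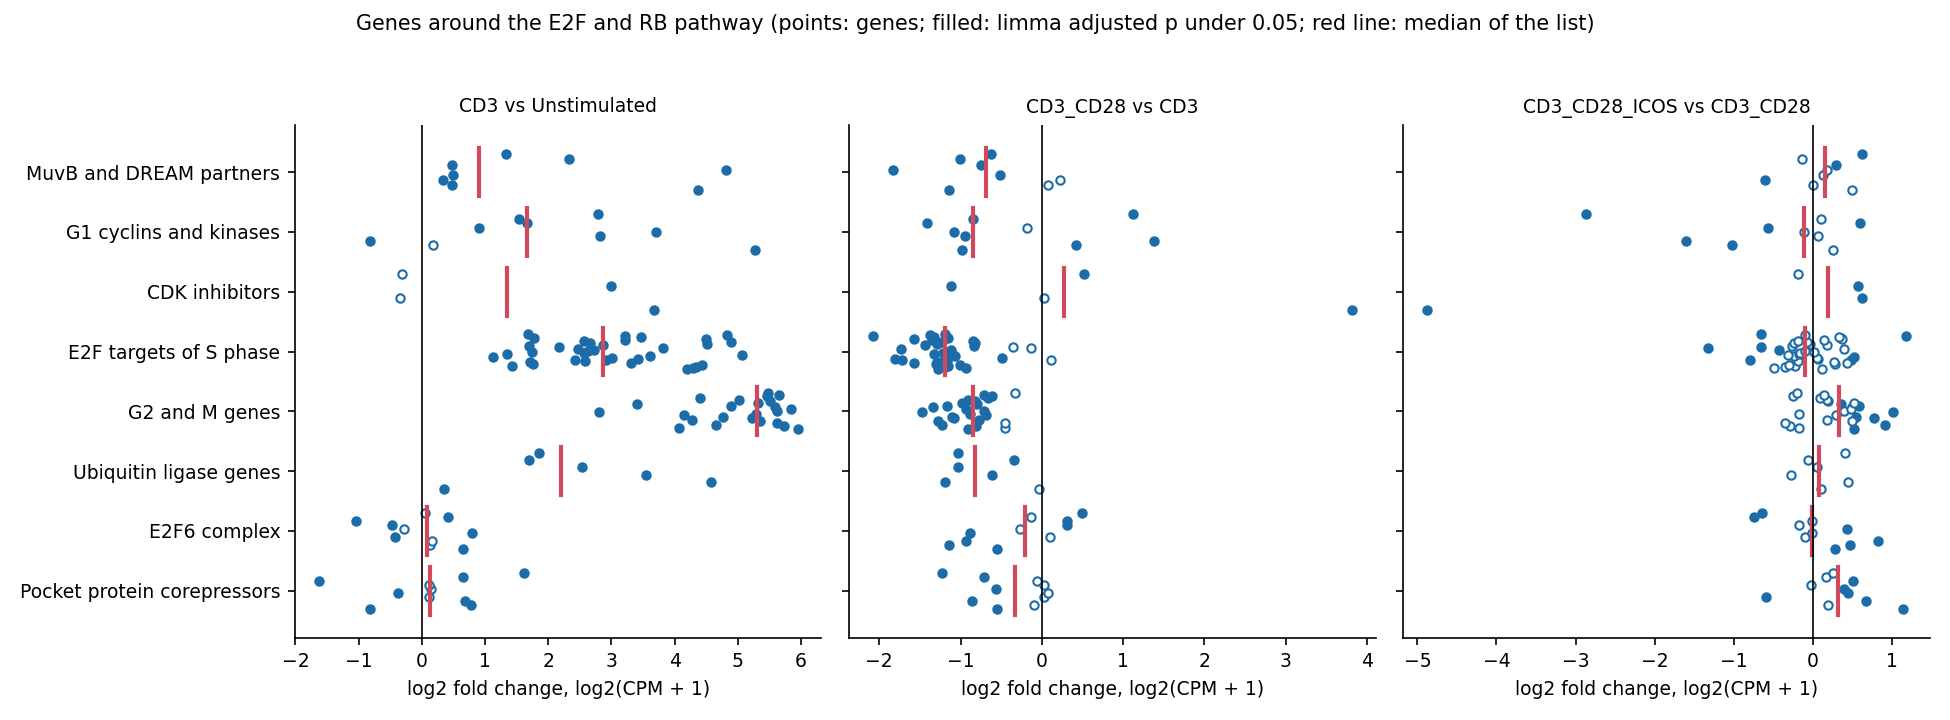
Log2 fold changes on the log2(CPM + 1) scale of the tested genes of 8 lists in 3 comparisons. Points are genes, filled where the limma adjusted p is under 0.05, and red lines are list medians. All 37 S phase targets lie right of 0 in CD3 against unstimulated, where 15 of them had to, and 34 are called lower in CD3_CD28 against CD3 (33 after median-of-ratios scaling). Some of the 34, Gins3 among them, passed the filter only through other groups than CD3_CD28.

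Degradation and repression genes complete the lists. Of the list Ubiquitin ligase genes, 6 of 6 were higher in CD3 than in unstimulated cells (5 under each of the other scalings) and 5 were lower in CD3_CD28 than in CD3 (4 after quantile normalization and 3 after median-of-ratios scaling). Skp2, the F-box protein that degrades p27 and p130, rose from 2.56 ± 1.29 to 11.2 ± 0.785 CPM in CD3. It reached 10 CPM only in CD3 libraries, so it had to be lower in the other groups and carries little weight in these counts. The list E2F6 complex had 3 higher and 3 lower of 10 in CD3 against unstimulated (median 0.09, or -0.18 and -0.06 under the other scalings). Pcgf6, the Polycomb ring finger protein bound by E2F6, was highest in CD3, as E2f6 was, at 20.3 ± 2.64 CPM against 11.2 ± 1.52 in unstimulated and 10.7 ± 2.75 in CD3_CD28. Rybp of the same list went the other way, from 48.2 ± 2.00 CPM in unstimulated to 22.9 ± 1.28 in CD3 (log2 fold change -1.04 ± 0.12, limma adjusted p = 2.97e-06). Of Pocket protein corepressors, 4 of 10 were higher and 3 lower in CD3 against unstimulated. Both lists are near the 43.6% higher and 26.3% lower of all genes. Suv39h1, a histone methyltransferase, rose from 40.0 ± 2.90 to 125 ± 13.7 CPM, and Arid4a, a pocket protein binding subunit of SIN3 complexes, fell from 199 ± 2.33 to 113 ± 6.88 CPM, with 76.9 ± 3.01 CPM in CD3_CD28 and 170.3 ± 12.2 CPM in CD3_CD28_ICOS. The chromatin remodelling gene Smarca2 fell from 214 ± 5.78 to 68.7 ± 2.12 CPM in CD3.

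The genes of most similar pattern were found by the root mean square difference of centred log2 values over the 12 libraries, as a description. For E2f1 they were Plk4 (0.213), Gmnn (0.213) and Prim1 (0.216), a centriole kinase, the licensing inhibitor geminin and a primase subunit. E2f2 was nearest to Hmgb2 (0.135), whose group means were 22.3, 149, 55.8 and 103 CPM. For E2f7 the nearest were Mxd3 (0.273), Gm15428 and Tyms (0.305), and for E2f8 they were Rrm2 (0.193), Spc24 and Esco2. Rbl1 lay nearest to Fancm (0.128), a DNA repair helicase. The neighbours of Rb1 were Pfkfb3 (0.102), a regulator of glycolysis, Atp6v1a and Eif2s2. Rbl2 had Pcmtd1 (0.0669), Mkrn1 and Pramef8, E2f4 had Mrps27 (0.0612), Dnajc2 and Uqcr10, E2f6 had Sephs2 (0.05), Trap1 and Dnajc9, and E2f3 had Gm13502 (0.192), Cchcr1 and Fam92a. No nearest gene of any member was itself a member.

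In the authors' deposited table of comparisons, all 60 member comparisons had the sign found here. Those comparisons come from the same 12 libraries, so like signs are no independent support. The share of all genes called by the authors is not given here. At a false discovery rate under 0.05, 35 of the 60 were called in the authors' deposited table against 49 here, and all 35 were among the 49. The 14 extra calls included E2f6 in CD3 against unstimulated (false discovery rate 0.0773 in the authors' deposited table) and 5 in CD3_CD28 against CD3, for E2f1, E2f3, E2f4, E2f6 and Rbl2. The others were 4 in CD3_CD28_ICOS against CD3_CD28, for E2f1, E2f4, E2f7 and Rbl1 (false discovery rates 0.291, 0.0905, 0.229 and 0.142 in the authors' deposited table), and 4 in CD3_CD28_ICOS against CD3, for E2f2, E2f6, E2f7 and E2f8. Both analyses called E2f2, E2f7, E2f8, Rb1 and Rbl1 in CD3_CD28 against CD3.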

How the data were processed

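RNA-seq of 12 libraries in 4 groups of 3 was read from 1 table of normalized values. Per the file headers and values, the authors deposited CPM, counts per 1e6 assigned reads, with 1e-04 added to every value, which was subtracted. Of values up to 1.2 CPM, 76.3 to 81.3% were whole multiples of 1 read within 0.02, too few to recover counts, so no count test was run. The authors deposited a p-value, a false discovery rate, a linear ratio and a log2 ratio for each comparison, and of these the log2 ratio and false discovery rate were read. The submitters' processing notes name Partek 10, DESeq2 and mm10. How reads were assigned to genes, and whether strand was used, is not given in the sources used here, and no length correction was made.

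Genes reaching 10 CPM in 3 or more libraries (9826 of 17203) were tested with limma 3.58.1 in R 4.3.3, with trend and robust estimation, on log2(CPM + 1) with 1 mean per group over all 12 libraries, two-sided, with Benjamini-Hochberg adjustment over all genes within each of 6 comparisons and a threshold of 0.05. Differences between the 3 stimulated groups used limma's F test on 9 libraries. Log2 ratios within a library were compared with the two-sided exact permutation test. The fit was tested on simulated data. Python 3.11.15 was used for the rest. Coordinates and exon lengths are from GENCODE vM21 (GRCm38, the same assembly as mm10), and promoters are RefSeq's. All 23 alternatives are reported in the closing section. No column of values was left without a known sample.

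The members and lists were chosen with earlier results of these data known, so that no pattern here is independent support for those results. Named genes are the 10 members, the E2F, DP, cyclin, kinase, inhibitor, MuvB and marker genes listed by name, up to 2 called members with the largest rise and 2 with the largest fall of each list, and the 3 genes of most similar pattern to each member, of which some are not reported here.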

Additional observations from a re-analysis of the deposited data

How the results depend on the processing

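The 60 member results were recomputed under 23 alternatives (1380 values): 1331 kept direction and side of the threshold, 29 lost a call, 7 gained one and 13 changed sign. Of 49 calls, 42 held under every alternative. In CD3_CD28 against CD3 the number of members called was 6 after quantile normalization and 6 after median-of-ratios scaling, against 10. In each case the cause was not tested.

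The values that changed sign were small. E2f6 in CD3_CD28 against unstimulated was -0.01 after quantile normalization and -0.01 without CD3_CD28 replicate 3. E2f4 in CD3_CD28_ICOS against unstimulated was -0.09 after quantile normalization, -0.07 after median-of-ratios scaling and -0.07 without CD3_CD28_ICOS replicate 1. Without CD3_CD28_ICOS replicate 2, E2f6 in that group was 0.07 against unstimulated and 0.02 against CD3_CD28. Rbl2 in CD3_CD28 against CD3 was 0.01 after median-of-ratios scaling. E2f3 in CD3_CD28_ICOS against CD3_CD28 was -0.08 after quantile normalization, -0.17 after median-of-ratios scaling, -0.03 without the ribosomal RNA gene, -0.13 without CD3_CD28 replicate 2 and -0.04 without CD3_CD28_ICOS replicate 1.

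The log2 ratio of E2f8 to E2f7 against unstimulated cells changed sign with single unstimulated libraries. For CD3 it was 0.23 without unstimulated replicate 3, and 0.23 with CD3_CD28 replicate 1 left out as well, against -0.38. For CD3_CD28 it was -0.10 and -0.25 without unstimulated replicate 1 or 2, against 0.13, and for CD3_CD28_ICOS it was 0.03 without unstimulated replicate 3, and 0.03 with CD3_CD28 replicate 1 also out, against -0.58.

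The replicate numbers were not taken to pair the libraries, because same-numbered libraries of different groups correlated at -0.0998 to 0.408 and not all above 0.1. As a hint from the data, 7 of 12 libraries correlated best with their own number, and the median correlation was 0.0366 for the same number and -0.0367 for other numbers. With the replicate block, the members called were 10, 8 and 6 against unstimulated, 9 in CD3_CD28 against CD3, 7 in CD3_CD28_ICOS against CD3_CD28 and 8 in CD3_CD28_ICOS against CD3, the 1 call lost being E2f3 in CD3_CD28 against CD3 (-0.37, limma adjusted p = 0.055). Depth limits E2f7, at 0.255 to 0.977 CPM in unstimulated libraries, where 1 read is worth 0.0364 to 0.0444 CPM. With 1 library left out in turn, E2f4 in CD3_CD28_ICOS against unstimulated ranged from -0.07 to 0.12 and E2f6 from -0.16 to 0.07. In CD3_CD28_ICOS against CD3_CD28 the range was -0.13 to 0.14 for E2f3 and -0.21 to 0.02 for E2f6. The log2 ratio of E2f8 to E2f7 against unstimulated had ranges of -0.75 to 0.23 for CD3, of -0.25 to 0.74 for CD3_CD28 and of -0.95 to 0.03 for CD3_CD28_ICOS.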
